A study of Mus musculus with 14 samples.

Results

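The autophagy genes described here were the 35 genes of the core autophagy machinery whose symbols stood in both of the authors' deposited tables, out of 46983 genes per table. They were taken by name, from a list drawn up with earlier results of these data known, and all 35 passed the filter on low counts in both tables. RNA was sequenced from mouse corpus callosum, a large white matter tract of the brain, and from oligodendrocytes, the myelin-forming cells, grown from neural stem cells. In each system, samples labelled Qk-KO were set against samples labelled WT. Qk encodes quaking, an RNA-binding protein that controls splicing, stability and translation of RNAs in glia.

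The callosum groups were 4 libraries labelled Qk-KO, from mice carrying Plp-CreERT2 with both Qk copies floxed (Plp-CreERT2;QKLoxP/LoxP), and 4 labelled WT, from mice carrying Plp-CreERT2 with 1 floxed copy (Plp-CreERT2;QKLoxP/+). All mice, on an FvB/C57BL6 hybrid background, were given tamoxifen when 8 weeks old and dissected after 4 more days, so the mice labelled WT shared the Cre, the tamoxifen and 1 floxed allele. The Plp promoter drives Cre in cells of the oligodendrocyte lineage, and the other cells of the dissected tissue were not sorted away. The culture groups were 3 libraries labelled Qk-KO and 3 labelled WT, of the same strain background, differentiated from neural stem cells in Neurobasal with B-27, GlutaMAX-I, IGF-1 at 100 ng/ml and T3, a thyroid hormone, at 50 ng/ml. Each genotype had 1 culture at passage 7, 1 at passage 12 and 1 at passage 13, and the descriptions of same-passage cultures differ only in the 40HT or EtOH tag described next, so each culture labelled Qk-KO has a partner labelled WT. The deposited fitted means hold 1 level per genotype and no term for these pairs. The descriptions of all 3 cultures labelled Qk-KO carry 40HT and those of all 3 labelled WT carry EtOH, so this tag and the genotype cannot be told apart. The Cre line of the cultures and the origin of each culture were not given in the sources used here.

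The deposited library columns hold fitted means: within a genotype, the libraries of a table differ by 1 constant factor for every gene, and they carry no replicate spread. Fitted totals ran from 15048646 to 21652188 counts in callosum libraries labelled Qk-KO and from 17913240 to 27666519 in those labelled WT, and from 41624614 to 48507303 in cultures labelled Qk-KO and from 38325833 to 48912999 in those labelled WT. Levels are therefore given as 1 fitted CPM value (fitted counts scaled to a library total of 1000000) per genotype, shared by its libraries, and all errors are standard errors (SE) of the log2 change, Qk-KO minus WT, in the authors' deposited table. A gene is called changed where the Benjamini-Hochberg adjusted p of the authors' deposited DESeq2 Wald test was under 0.05. Qk itself stood at 907 CPM in callosum labelled Qk-KO and 713 CPM in callosum labelled WT, a change of 0.32 ± 0.12 (adjusted p = 0.162, authors' deposited table). In culture Qk stood at 3277 CPM in libraries labelled Qk-KO and 1972 CPM in those labelled WT, a change of 0.66 ± 0.14 (adjusted p = 4.19e-05, authors' deposited table). The Qk level was thus not lower in the libraries labelled Qk-KO of either system, and the values do not show which exons were covered.

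Markers checked the cells. Myelinating oligodendrocyte markers summed to 8125 CPM in callosum labelled Qk-KO and 7787 CPM in callosum labelled WT, and to 2304 CPM in cultures labelled Qk-KO and 2970 CPM in cultures labelled WT. The cultures also held astrocyte markers, with sums above those of the myelinating markers: 4306 CPM in libraries labelled Qk-KO and 14424 CPM in those labelled WT. Sums over unlike marker lists do not give shares of cells, and a change in culture cannot be assigned to 1 cell type. Of the 10 myelinating markers, 3 were called higher in callosum, where the changes ran from -0.48 to 1.16, and 3 lower and 2 higher in culture, where the median was -0.56 (authors' deposited tables). Markers of oligodendrocyte precursors summed to 1052 CPM in callosum labelled Qk-KO and 746 CPM in callosum labelled WT, with 1 of 8 called higher. In cultures they summed to 3442 CPM in libraries labelled Qk-KO and 3757 CPM in those labelled WT, with 3 of 8 called lower and 1 higher. In bulk samples such as these, fewer cells of a type and less RNA per cell cannot be told apart.

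Autophagy carries cytoplasm, organelles and protein aggregates to the lysosome inside a double membrane, the autophagosome. The ULK1 kinase complex starts the process, a class III phosphatidylinositol 3-kinase complex marks the site, and WIPI proteins, ATG2 and ATG9 build the membrane; a ubiquitin-like conjugation system then marks the growing membrane, and receptors such as p62 bring in cargo. In glia, autophagy has been linked to oligodendrocyte survival and to the turnover of myelin.

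In cultures labelled Qk-KO, 10 of the 35 genes were lower and 1 was higher. Wipi1 fell the most, followed by Atg4a and Optn, and all 3 cargo receptor genes were lower. None of the 11 genes of the initiation and lipid kinase complexes passed the test at the authors' scaling. In callosum labelled Qk-KO, Wipi1 was the only one of the 35 called and it was higher, so by the deposited calls this gene moved in opposite directions in the 2 systems. Its callosum call was lost under some other settings, given below. The background of each comparison differs widely. In culture 28.6% of the 17503 genes tested were called, 13.3% higher and 15.2% lower, and in callosum 2.32% of the 19935 genes tested, 2.09% higher and 0.231% lower (authors' deposited tables). The 11 genes called in culture are 31.4% of the 35, a share close to that background, and it is below the 36.2% called among the 11348 tested genes at least as abundant as the lowest autophagy gene. The share called lower was 28.6% of the 35 genes, beside 15.2% of all genes tested and 19.3% of those at least as abundant, of which 16.9% were called higher. In callosum, 2.65% of the 11606 genes at least as abundant as the lowest autophagy gene were called, 2.4% higher and 0.258% lower. The 1 autophagy gene called there is 2.86% of the 35, a share close to that background. The median change over the 35 genes was -0.01 in culture and -0.02 in callosum, beside 0.01 and -0.01 over all genes tested (authors' deposited tables).

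**Figure D1:**
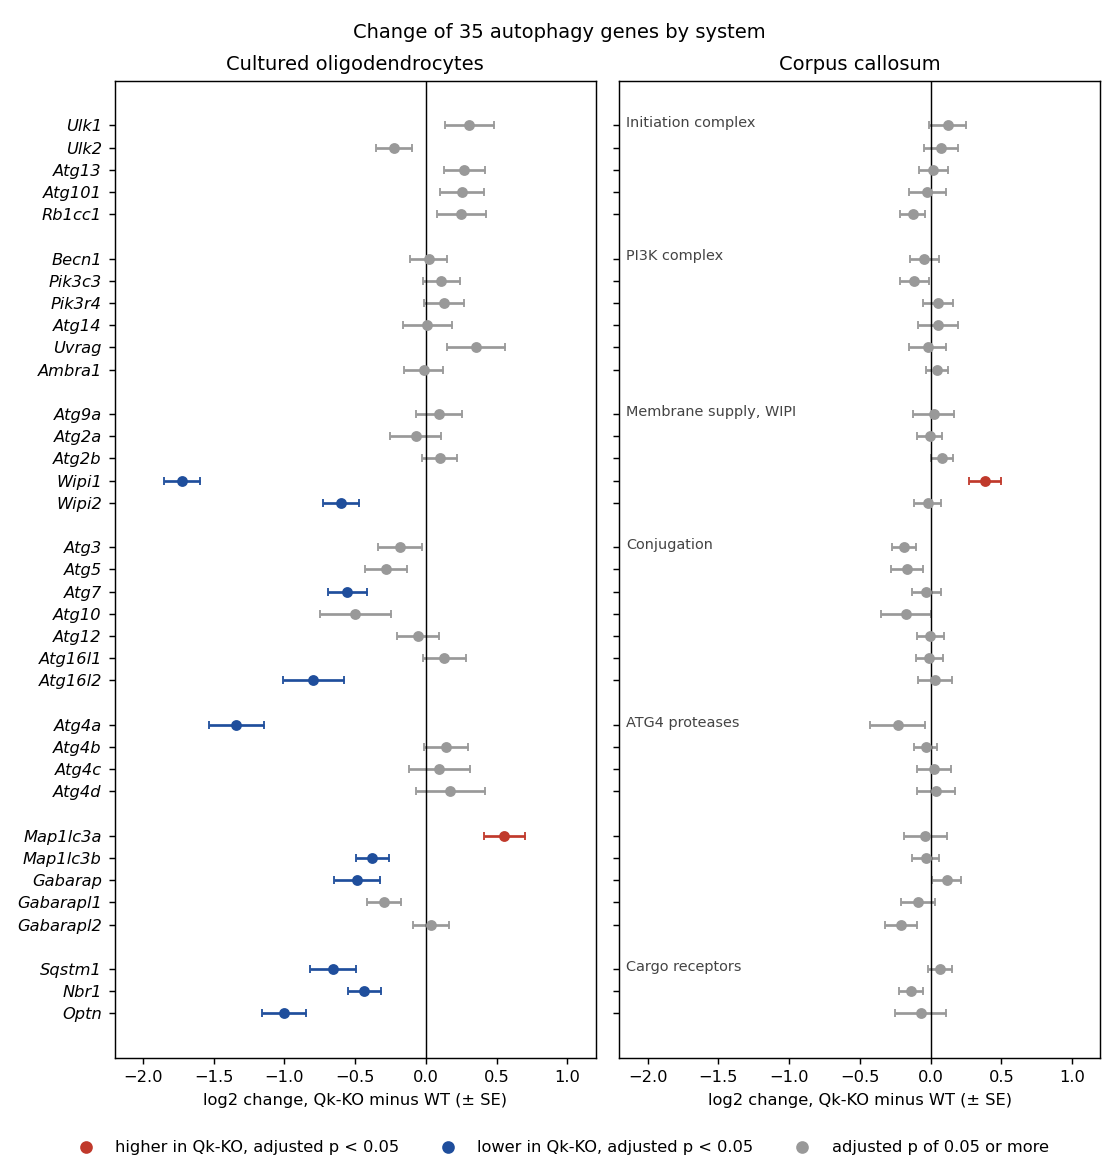
Log2 change, Qk-KO minus WT, of the 35 autophagy genes ordered by role, in culture and in callosum, with bars of 1 SE from the authors' deposited tables. Coloured points mark genes with an adjusted p under 0.05, red where higher and blue where lower in Qk-KO, and in culture they include membrane, conjugation, protease and receptor genes.

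No gene of the initiation complex was called in either system at the authors' scaling. Atg13 was called higher in culture under library-size scaling without mitochondrial genes. The complex comprises the kinases Ulk1 and Ulk2, the scaffolds Rb1cc1 (FIP200) and Atg13, and Atg101, which stabilises Atg13. In culture its 5 genes lay between -0.22 ± 0.13 for Ulk2 (adjusted p = 0.182) and 0.31 ± 0.18 for Ulk1 (adjusted p = 0.190, DESeq2, authors' deposited table). Of these changes 4 were positive and the median was 0.26, and 0 of 5 had even an unadjusted p under 0.05 in the authors' deposited DESeq2 table. In callosum 0 of 5 were called and 0 had an unadjusted p under 0.05, with changes between -0.13 for Rb1cc1 and 0.12 for Ulk1 (authors' deposited table). Per kilobase of transcript, Ulk2 had the highest level of the complex in culture, 18.8 fitted CPM per kilobase in libraries labelled Qk-KO and 20.8 in those labelled WT. The lipid kinase complex gave the same count. Its 6 genes are the catalytic subunit Pik3c3 (VPS34), its regulatory subunit Pik3r4, the scaffold Becn1, the alternative partners Atg14 and Uvrag, and the Becn1 regulator Ambra1. None was called in either system, and 0 of 6 had an unadjusted p under 0.05 in each of the authors' deposited tables. In culture 5 of the 6 changes were positive, with a median of 0.07 (authors' deposited table). Uvrag had the largest value of the 6 in culture, 0.35 ± 0.21 (adjusted p = 0.203, authors' deposited table), with a 95% interval from -0.05 to 0.76.

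Wipi1 and Wipi2 encode proteins that read the lipid mark, and the Wipi2 protein recruits the conjugation machinery. Wipi1 (ENSMUSG00000041895, chr11:109573331-109611967, minus strand, GRCm38) had 923, 851 and 792 fitted counts in the 3 cultures labelled Qk-KO, against 2910, 2280 and 2482 in the 3 labelled WT. These are 1 fitted mean per genotype multiplied by depth, so they show no spread between replicates, and the level was 19.03 CPM in cultures labelled Qk-KO and 59.5 CPM in cultures labelled WT. The change was -1.72 ± 0.13, or 3.30-fold lower in Qk-KO (adjusted p = 8.58e-40, DESeq2 Wald test, authors' deposited table). In callosum Wipi1 had 576, 506, 483 and 401 fitted counts in libraries labelled Qk-KO and 494, 555, 360 and 435 in those labelled WT. They too are 1 fitted mean per genotype multiplied by depth, and the levels were 26.6 CPM in callosum labelled Qk-KO and 20.1 CPM in callosum labelled WT. The change there was 0.38 ± 0.12, or 1.31-fold higher (adjusted p = 0.0386, DESeq2 Wald test, authors' deposited table). This callosum call was lost with a Student reference in place of the normal one (adjusted p = 0.714) and without the authors' filter on low counts (adjusted p = 0.0625). Wipi2 (chr5:142627698-142670588, plus strand) stood at 84.5 CPM in cultures labelled Qk-KO and 121 CPM in those labelled WT, a change of -0.60 ± 0.13 (adjusted p = 3.83e-05, authors' deposited table, DESeq2). In callosum its change was -0.02 ± 0.09 (adjusted p = 0.9997, authors' deposited table, DESeq2). The other membrane genes, the lipid scramblase Atg9a and the lipid transfer proteins Atg2a and Atg2b, were not called and lay between -0.07 and 0.10 in culture (authors' deposited table).

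**Figure D2:**
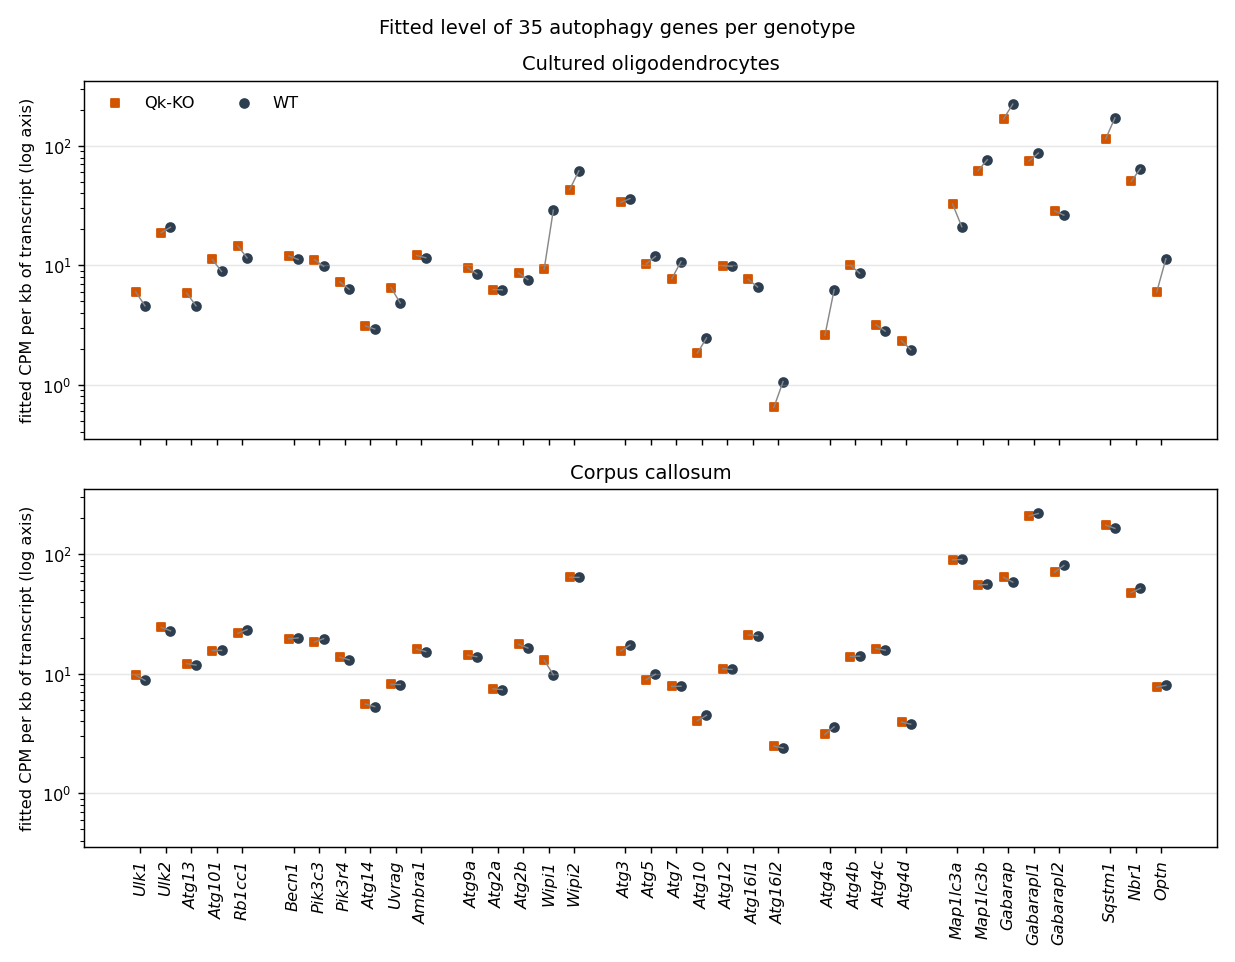
Fitted level per kilobase of the principal annotated transcript of each autophagy gene, on a log axis, for Qk-KO (squares) and WT (circles) in culture and callosum, 1 value per genotype with no replicate spread. Wipi1, Atg4a and Optn show the widest gaps between genotypes, all in culture.

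Of the 7 conjugation genes, 2 were lower in culture and none was called in callosum. Atg7, the E1-like enzyme that starts both conjugation reactions (chr6:114643097-114860614, plus strand), stood at 29.1 CPM in cultures labelled Qk-KO and 40.5 CPM in those labelled WT, a change of -0.55 ± 0.14 (adjusted p = 4.26e-04, authors' deposited table, DESeq2). Atg16l2, a paralog of the Atg16l1 scaffold (chr7:101263034-101302251, minus strand), stood at 4.17 CPM in cultures labelled Qk-KO and 6.86 CPM in those labelled WT, a change of -0.79 ± 0.22 (adjusted p = 0.0017, authors' deposited table, DESeq2). It was the lowest of the 35 genes per kilobase in both systems, and its paralog Atg16l1, the subunit of the main conjugation complex, had 0.13 ± 0.15 in culture (authors' deposited table). The E2-like enzymes Atg3 and Atg10, and Atg5 and Atg12, which are joined to each other, were not called. Atg10 had -0.50 ± 0.25 in culture (adjusted p = 0.125, authors' deposited table, DESeq2), with an interval from -0.99 to -0.01 at a level of 2.91 CPM in libraries labelled Qk-KO and 3.90 CPM in those labelled WT. In callosum, the change of Atg7 was -0.03 ± 0.10 and that of Atg16l2 was 0.03 ± 0.12, both with an adjusted p of 0.9997 (authors' deposited table, DESeq2). Atg3 had the only other unadjusted p under 0.05, there, at -0.19 ± 0.08 (adjusted p = 0.412, authors' deposited table, DESeq2).

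Of the 4 proteases of the ATG4 family, only Atg4a was called. Atg4a (chrX:140956907-141164270, plus strand) stood at 5.71 CPM in cultures labelled Qk-KO and 13.7 CPM in those labelled WT. The change was -1.34 ± 0.19, or 2.53-fold lower (adjusted p = 1.65e-10, authors' deposited table, DESeq2). In callosum it was -0.23 ± 0.20 (adjusted p = 0.983, authors' deposited table, DESeq2), with the lowest interval bound of the genes not called, -0.62. Its pseudogene Atg4a-ps had 0.061 CPM in cultures labelled Qk-KO and 0.144 CPM in those labelled WT. Atg4b, the highest of the 4 per kilobase of principal transcript in culture, had 0.14 ± 0.15 there, and Atg4c and Atg4d lay at 0.10 ± 0.21 and 0.17 ± 0.25 (authors' deposited table). Per kilobase of all annotated exons, Atg4a was above Atg4b in cultures labelled WT, at 5.15 against 4.33 fitted CPM.

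Map1lc3a (chr2:155276297-155278073, plus strand) was the only autophagy gene called higher in culture. It stood at 36.3 CPM in cultures labelled Qk-KO and 23.4 CPM in those labelled WT. The change was 0.55 ± 0.14, or 1.47-fold (adjusted p = 9.12e-04, authors' deposited table, DESeq2). Gabarap (chr11:69991143-69994951, plus strand), at 228 CPM in cultures labelled Qk-KO and 303 CPM in those labelled WT, had a change of -0.49 ± 0.16 (adjusted p = 0.0132, authors' deposited table, DESeq2). Map1lc3b (chr8:121590361-121598760, plus strand), the form most used to follow autophagosomes, had a change of -0.38 ± 0.12 (adjusted p = 0.0065, authors' deposited table, DESeq2). It stood at 158 CPM in cultures labelled Qk-KO and 194 CPM in those labelled WT. In callosum, the changes were -0.04 ± 0.15 for Map1lc3a, -0.04 ± 0.10 for Map1lc3b and 0.11 ± 0.10 for Gabarap, with adjusted p of 0.9997, 0.9997 and 0.995 (authors' deposited table, DESeq2). In culture, Gabarapl1 had -0.29 ± 0.12 and missed the threshold (adjusted p = 0.0514), and Gabarapl2 had 0.04 ± 0.13 (authors' deposited table, DESeq2).

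The 3 cargo receptor genes were all lower in culture. Sqstm1 encodes p62, a receptor for ubiquitinated cargo (chr11:50199366-50210827, minus strand). It stood at 234 CPM in cultures labelled Qk-KO and 350 CPM in those labelled WT. The change was -0.66 ± 0.16, or 1.58-fold lower (adjusted p = 4.16e-04, authors' deposited table, DESeq2). Optn encodes optineurin, a receptor for damaged mitochondria and bacteria (chr2:5020642-5064051, minus strand). It stood at 15.7 CPM in cultures labelled Qk-KO and 29.7 CPM in those labelled WT. The change was -1.001 ± 0.16, or 2.00-fold lower (adjusted p = 3.49e-09, authors' deposited table, DESeq2). Nbr1, a receptor for ubiquitinated aggregates and peroxisomes (chr11:101552149-101581951, plus strand), had a change of -0.43 ± 0.12 (adjusted p = 0.0015, authors' deposited table, DESeq2). It stood at 242 CPM in cultures labelled Qk-KO and 310 CPM in those labelled WT. In callosum, Sqstm1 had 0.07 ± 0.09, Optn -0.07 ± 0.18 and Nbr1 -0.14 ± 0.08, with adjusted p of 0.9997, 0.9997 and 0.787 (authors' deposited table, DESeq2).

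Some markers of other cells also differed between the genotypes. In culture, 10 of 12 astrocyte markers were lower in libraries labelled Qk-KO, with a median of -2.10 (authors' deposited table), and 8 of 11 tested neuronal markers were higher, with a median of 1.63 and sums of 1781 CPM in libraries labelled Qk-KO and 756 CPM in those labelled WT. Of 14 microglial markers, 6 had no reads in culture, C1qa, C1qb and C1qc among them, and the 2 that were tested were both lower, with a median of -1.46 (authors' deposited table). The 14 summed to 12.4 CPM in cultures labelled Qk-KO and 20.8 CPM in those labelled WT. In callosum, 11 of 14 microglial markers were higher, with a median of 1.28 (authors' deposited table) and sums of 1131 CPM in tissue labelled Qk-KO and 496 CPM in tissue labelled WT. Astrocyte markers there summed to 6244 CPM in tissue labelled Qk-KO and 5066 CPM in tissue labelled WT, with 2 of 12 called higher. Neuronal markers there summed to 6781 CPM in tissue labelled Qk-KO and 7227 CPM in tissue labelled WT, with 0 of 12 called and 11 of the changes negative. Of 6 choroid plexus markers in callosum, 0 were called by DESeq2, but all 6 had negative changes with an unadjusted p under 0.05, a median of -0.78 (authors' deposited table) and sums of 1177 CPM in tissue labelled Qk-KO and 2025 CPM in tissue labelled WT. The part of these shifts in the lower genes and in Map1lc3a in culture, and in Wipi1 in callosum, was not tested. With a Student reference on the deposited Wald statistics, none of the 11 culture calls remained, and no gene of all those tested in culture was called.

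In callosum the 95% intervals, drawn with a normal reference, bound the changes of the unsorted tissue. They do not bound a change within 1 cell type. Among the 34 genes not called, the values ran from -0.23 for Atg4a to 0.12 for Ulk1, and no 95% interval reached below -0.62 or above 0.38 (authors' deposited table). For 32 of the 35 genes the whole interval lay within 0.5 log2 units of no change. In culture 14 of the 35 had such an interval. The summed level of the 35 genes was 2967 CPM in callosum labelled Qk-KO and 2975 CPM in callosum labelled WT, and 2134 CPM in cultures labelled Qk-KO and 2482 CPM in cultures labelled WT.

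The change in culture was then set against the change in callosum, gene by gene, as a difference of the deposited log2 changes with their SEs combined, and p-values were adjusted over the 16601 genes tested in both tables. The difference passed for 9 of the 35 genes, 8 of them lower and 1 higher in culture, where 21.5% of all genes passed, 11.7% lower and 9.84% higher. Wipi1 had the widest difference, -2.11 ± 0.17 (adjusted p = 4.22e-32, test of the difference on values of the authors' deposited tables, Wald). By the same Wald test on the authors' deposited tables, Atg4a differed by -1.11 ± 0.28 (adjusted p = 7.52e-04) and Optn by -0.93 ± 0.24 (adjusted p = 0.0012). Atg16l2 differed by -0.83 ± 0.25 (adjusted p = 0.0067), Sqstm1 by -0.72 ± 0.18 (adjusted p = 9.66e-04) and Gabarap by -0.60 ± 0.19 (adjusted p = 0.0118). For Wipi2 the difference was -0.58 ± 0.16 (adjusted p = 0.0027), for Atg7 -0.52 ± 0.17 (adjusted p = 0.0140) and for Map1lc3a 0.59 ± 0.21 (adjusted p = 0.0251). The share of the 35 genes that passed is near that of all genes tested. For Nbr1 and Map1lc3b, both lower in culture, the difference from callosum was -0.30 ± 0.14 and -0.34 ± 0.15 and did not pass (adjusted p = 0.138 and 0.094, Wald test on the authors' deposited tables). The cells present and the tags of treatment also differ between the systems, and these cannot be told apart from the system.

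**Figure D3:**
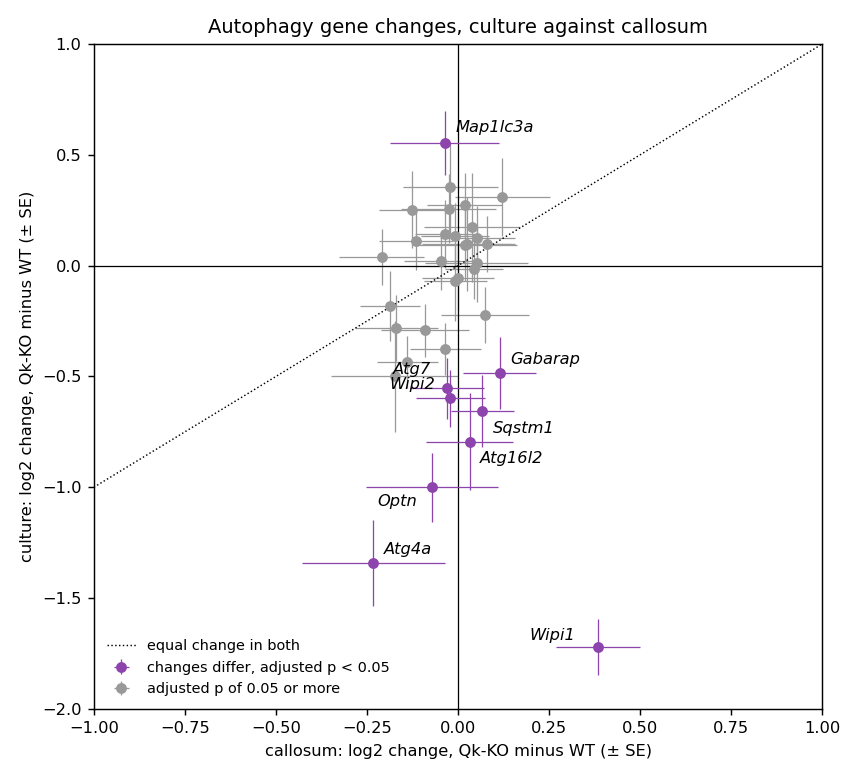
Log2 change, Qk-KO minus WT, in culture (vertical axis) against callosum (horizontal axis) for each of the 35 autophagy genes, with SE bars from the authors' deposited tables. The coloured genes are the 9 whose difference between systems passed at an adjusted p under 0.05, with Wipi1 at -1.72 in culture and 0.38 in callosum.

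Quaking proteins bind RNA at the sequence ACTAAC (written in DNA letters), and a search of the transcript strand of each gene's longest annotated 3′ untranslated region (GENCODE M21, GRCm38) placed it in 7 of the 35 genes, or 20.0%. Among all tested genes with such a region the share was 19.6% in culture and 19.3% in callosum. Of the 10 autophagy genes lower in culture, 3 held it, against 4 of the 24 not called. Among all genes called lower in culture 25.1% held it, with a median region of 1260 bases, and among all called higher 18.8%, with a median of 1571 bases. Wipi1 held 3 copies, and Wipi2 and Atg16l2 held 1 each. Their 30-base windows are shown because these are the genes lower in culture that carry the motif, with the motif in capitals, 5′ to 3′ on the transcript strand.
Wipi1, chr11:109576810-109576839, minus strand: ccgtaaccaaatACTAACctggggagtgtg
Wipi1, chr11:109575527-109575556, minus strand: atgttagagaaaACTAACatataaagcaaa
Wipi1, chr11:109575325-109575354, minus strand: acatccacaactACTAACatttaaatgtgc
Wipi2, chr5:142670359-142670388, plus strand: ttggaaatgcatACTAACaactgcctgctg
Atg16l2, chr7:101285496-101285525, minus strand: caggcaggatttACTAACccaaacctgact
The flanking bases differ between the windows, and the first Wipi1 copy lies 209 bases into a region of 1904 bases. A match is a run of letters and not a measured binding site, and Atg4a, Optn and Sqstm1 had none in this region. Only this exact sequence was searched, and variants of it and introns were not. The longest principal transcript, used for levels per kilobase, has 1959 bases for Wipi2, fewer than the 3616 of its searched region. For Wipi1 it has 2050 bases, beside the searched region of 1904. The searched region can thus belong to another transcript than the one used for levels, and which transcripts the samples held was not tested.

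Transcription factors of the TFEB family bind the E-box CACGTG upstream of many lysosomal and autophagy genes. Within windows of 250 bases before to 50 bases after the gene start (RefSeq, GRCm38.p6), 4 of the 29 autophagy genes with an entry held CACGTG, namely Atg14, Atg3, Atg5 and Atg7, where 8.09% of 27025 genes did. The extended form GTCACGTG, on either strand, was in Atg14, Atg3 and Atg7, where 2.55% of all promoters held it. Of the genes called lower in culture, Atg7 alone held CACGTG, and its window starts at base 114670846 of chromosome 6, inside the gene as GENCODE draws it.

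Around the core machinery, 72 further genes of 5 groups were examined. In culture 16 of the 70 tested were lower and 2 were higher, and in callosum 0 of 71 were called by the DESeq2 Wald test of the authors' deposited table, with 5 at an unadjusted p under 0.05. In culture 25.7% of the related genes tested were called and 22.9% were lower, beside 28.6% and 15.2% of all genes tested. In callosum 2.32% of all genes tested were called. The share lower in culture was 27.3% for the other receptors and adaptors, 30.8% for the further early genes and 20.0% for fusion. It was 10.0% for nutrient and energy signalling and 36.4% for transcription factors. The medians of the related genes were -0.08 in culture and 0.02 in callosum, and the shares are to be read against these backgrounds. By group, the medians in culture were -0.01 for the other receptors and adaptors, -0.07 for the further early genes, -0.09 for fusion, -0.05 for nutrient and energy signalling and -0.21 for transcription factors (authors' deposited table).

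Other selective receptors and adaptors had 3 of 11 tested genes lower in culture. Ncoa4, the receptor for ferritin, had -0.69 ± 0.13 (56.4 CPM in Qk-KO, 86.5 CPM in WT), Fam134b, a receptor for endoplasmic reticulum, -0.68 ± 0.19, and Fundc1, a receptor for mitochondria, -0.59 ± 0.15 (authors' deposited table). Tax1bp1, another receptor for ubiquitinated cargo, had -0.35 ± 0.15 and did not pass (adjusted p = 0.0689, DESeq2, authors' deposited table). Among 13 further early genes, 4 were lower and 1 was higher in culture. Wdr45b, which encodes another WIPI protein, had -0.67 ± 0.13, and Rubcn, listed under its older symbol 1700021K19Rik and encoding an inhibitor of the lipid kinase complex, had -0.64 ± 0.16 (authors' deposited table). Tmem41b, a lipid scramblase, and Sh3glb1, a membrane-bending partner of Uvrag, had -0.35 ± 0.12 and -0.32 ± 0.12, while Trp53inp1, a target of p53, was higher by 0.56 ± 0.14 (authors' deposited table). Of the 4 WIPI genes, Wipi1, Wipi2 and Wdr45b were thus lower and Wdr45 had -0.05 ± 0.16 (authors' deposited table).

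Genes of autophagosome-lysosome fusion had 3 of 15 lower in culture. These were Rab7, the GTPase of late endosomes, at -0.50 ± 0.16, the SNARE Ykt6 at -0.37 ± 0.12 and the tethering subunit Vps11 at -0.35 ± 0.12 (authors' deposited table). Nutrient and energy signalling had 2 of 20 lower and 1 higher. Rragd, a GTPase that brings mTORC1 to the lysosome, had -0.71 ± 0.19, its regulator Flcn -0.48 ± 0.16, and Prkaa1, a catalytic subunit of AMPK, 0.30 ± 0.12, while Mtor had -0.06 (authors' deposited table). Transcription factors that act on autophagy genes had 4 of 11 tested genes lower. Nfe2l2, which encodes the stress regulator NRF2, stood at 42.8 CPM in cultures labelled Qk-KO and 126 CPM in cultures labelled WT. Its change was -1.63 ± 0.15 (adjusted p = 2.27e-24, DESeq2 Wald test, authors' deposited table). Ppara, a nuclear receptor of fat oxidation, had -1.40 ± 0.30, its coactivator Ppargc1a -0.63 ± 0.20 and Mitf, a relative of Tfeb, -0.60 ± 0.16 (authors' deposited table). Tfeb itself had -0.05 ± 0.31 in culture (authors' deposited table). The astrocyte markers given above also differed between the cultures, and their part in the changes of these groups was not tested.

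**Figure D4:**
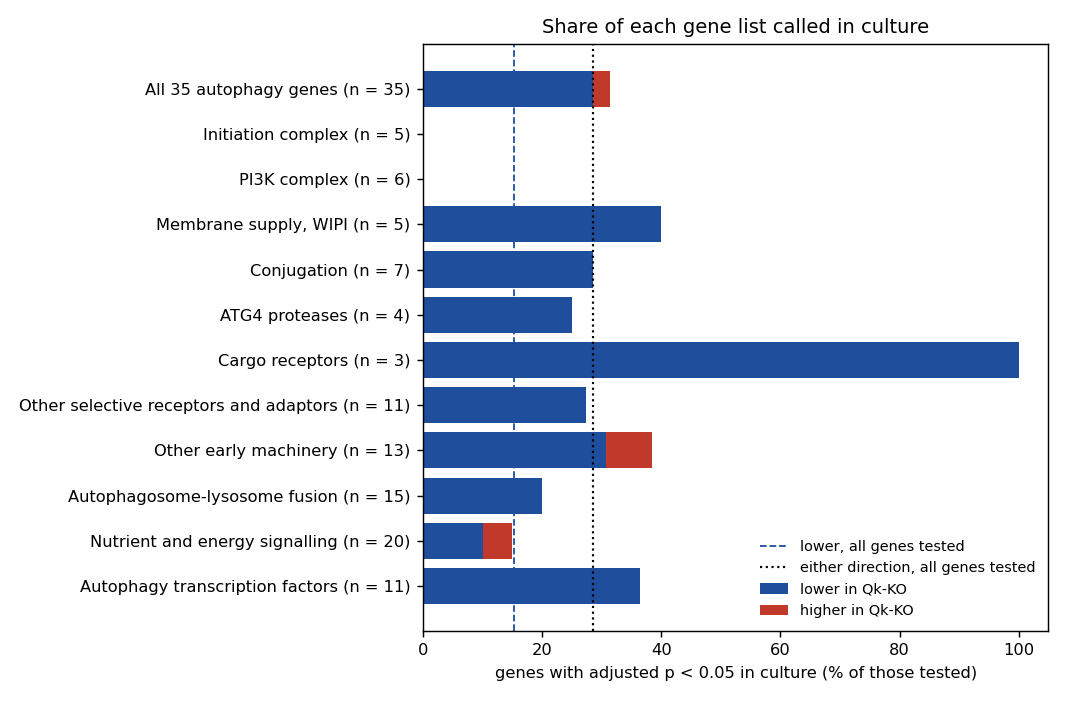
Share of tested genes called lower (blue) or higher (red) in culture, for all 35 autophagy genes, for 6 of the 7 roles and for each related group, with lines for the share lower (dashed) and the share in either direction (dotted) among all genes tested. The receptor group reaches 100% lower, from 3 genes, and the initiation and lipid kinase groups stand at 0.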

How the data were processed

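Per the submitters' processing notes, the tools were FastQC, TopHat2 2.0.14, featureCounts and DESeq2 on build mm10; annotation, strand setting and parameters were not given in the sources used here. The authors deposited, per the file headers, 1 DESeq2 table per system: a mean normalized count (a signal), a log2 fold change of WT over Qk-KO with its SE, a Wald score, a p-value, an adjusted p-value, and per-library log2 values. These deposited log2 values are fitted means plus 1, since libraries of a genotype differ by 1 factor (tolerance 1e-09 log2). The planned replicate tests therefore could not be run, and the deposited statistics were used with the sign turned to Qk-KO minus WT.

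Calls are adjusted p under 0.05 over all genes tested, two-sided. p-values measure the spread the authors' model saw, which may be technical. Fitted CPM was scaled by library totals, so its ratios differ from the fold changes by 0.08 log2 in culture and 0.02 in callosum. The systems were normalized separately and their levels are not compared. The difference test combined the 2 deposited changes and SEs (Wald, Benjamini-Hochberg over 16601 genes), and its calculation was checked on simulated data. Those data had normal errors of the deposited SEs, as the test assumes, so they cannot show how it behaves in small groups. Per-kilobase levels used the longest principal transcript of GENCODE M21, matched by gene ID for 35 of 35 genes, 24 at the same version. Opposite-strand overlaps include Mrnip on 17.3% of Sqstm1 exon bases, 1700101I11Rik on 28.3% of Gabarapl1 and Cntd1 on 43.9% of Becn1, and without a strand setting shared reads cannot be told apart.

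All 35 genes are accounted for, and summed values of 1 gene family are not reported here. Full statistics are given for those called in either system or in the difference, and for related groups the called genes, up to 4 per direction, and 1 that did not pass. Genes and lists were chosen with earlier results of these data known. Alternatives were other reference distributions, filters, thresholds and scalings. Python 3.11.15 with pandas 2.3.3, numpy 2.4.6, scipy 1.17.1 and matplotlib 3.10.9 was used.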

Additional observations from a re-analysis of the deposited data

Results flagged for a closer look

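For 9 of the 35 genes, the log2 change, Qk-KO minus WT, differed between culture and callosum by the Wald test of the difference on the authors' deposited values (adjusted p under 0.05 over 16601 genes). Among all 16601 genes, 21.5% passed the same test, so a count of 9 in either direction is near the background. Of the 9, 8 were lower in culture and Map1lc3a was higher, where 11.7% of all genes were lower and 9.84% higher. Whether this split is particular to these genes was not tested. The difference, culture minus callosum, was -2.11 for Wipi1, -1.11 for Atg4a, -0.93 for Optn, -0.83 for Atg16l2, -0.72 for Sqstm1, -0.60 for Gabarap, -0.58 for Wipi2, -0.52 for Atg7 and 0.59 for Map1lc3a. Wipi1 was called in both systems with opposite signs, while the other 8 were called in culture alone. Under a Student reference with degrees of freedom from the libraries of both systems together, 5 of the 35 differences passed. Per-library values hold no spread, so no library could be checked for standing apart.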

How the results depend on the processing

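With a Student reference on libraries minus 2 degrees of freedom, 0 autophagy genes were called in callosum and 0 in culture (0 lower, 0 higher), and 0 related genes were called in culture. For the differences between systems, the Student reference took the libraries of both systems together minus 4 degrees of freedom, and 5 passed. That is more degrees of freedom than either system had alone, so this count and the counts of 0 rest on unlike references. Without the filter on low means, callosum had 0 calls (0 higher). With at least 1.5-fold required, callosum had 0 calls (0 higher), culture had 6 (6 lower, 0 higher), and the related groups had 10 in culture. At an adjusted p under 0.1, 1 related gene was called in callosum. Library-size scaling moved all changes in culture by 0.08 log2, and the same without mitochondrial genes by 0.11. That last scaling gave 2 genes called higher in culture, Map1lc3a and, at 0.38, Atg13 of the initiation complex. Under it, Gabarap (adjusted p = 0.0619) and Map1lc3b (adjusted p = 0.0641) lost their calls (Wald test, authors' deposited tables). Wipi2 in callosum stood at -0.02, and at 0.0019 under library-size scaling, and near-zero genes that changed sign numbered 5 in callosum and 4 in culture. Over all genes in culture, the main scaling gave 2336 higher and 2667 lower, library-size scaling 3054 and 2296, and without mitochondrial genes 3405 and 2151. No paired analysis was possible because the library columns hold fitted means without replicate spread; leaving out each replicate and the replicate block were not run for the same reason. The cause of the changes between settings was not tested, and counting depth per library cannot be judged from fitted means.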
